A study of Mus musculus with 8 samples.

Results

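The proneural basic helix-loop-helix (bHLH) factors examined here are 9 genes, Neurog1, Neurog2, Neurod1, Neurod2, Neurod4, Neurod6, Atoh1, Olig2 and Ptf1a. They were chosen by gene name from a table of 24421 genes, and all 9 were found. RNA was sequenced from mouse embryonic stem cells (mESCs) of 2 genotypes, a Hira-null line (Clone 104) and a wild type (WT) line (W9.5), to ask which genes depend on the histone chaperone HIRA as mESCs become cardiomyocytes. The 4 groups were Hira-null cultures at day 15, WT cultures at day 15, undifferentiated Hira-null mESCs at day 0 and undifferentiated WT mESCs at day 0, with 2 biological samples in each and 8 libraries in all. Day 15 cultures came from embryoid bodies formed in hanging drops and then plated, so they hold mixed cell types. The study's methods give an H3.3-HA tag for the lines, and the mutant is 1 clone, so an effect of the mutation and a trait of the clone cannot be told apart.

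Proneural bHLH factors are transcription factors that commit dividing progenitors to a neural fate. Most pair with a widely expressed E protein and bind the E-box motif in DNA. Many, though not all, switch on Notch ligands and neuronal genes. Id proteins capture the E proteins, and Hes and Hey repressors hold proneural genes down. Neurogenins start the programme and NeuroD factors carry it on in young neurons. Olig2 specifies motor neuron and oligodendrocyte progenitors, Atoh1 specifies granule cells, hair cells and gut secretory cells, and Ptf1a specifies inhibitory neurons and the exocrine pancreas.

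The stretch that defines the family is shown first, because it shows how alike the genes are at the place where each protein meets DNA. These are 75 coding bases from each gene's transcript in the NCBIM37 (mm9) annotation, with capitals for the 21 bases of the conserved core of the basic region.
Neurog2: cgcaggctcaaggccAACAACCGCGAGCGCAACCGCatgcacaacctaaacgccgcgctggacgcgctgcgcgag
Neurog1: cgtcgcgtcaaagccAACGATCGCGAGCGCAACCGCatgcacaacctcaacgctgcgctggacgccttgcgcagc
Neurod1: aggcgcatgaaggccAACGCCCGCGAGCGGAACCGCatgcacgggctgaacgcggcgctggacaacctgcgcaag
Neurod2: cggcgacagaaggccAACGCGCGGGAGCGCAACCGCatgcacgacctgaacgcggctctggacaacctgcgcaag
Neurod4: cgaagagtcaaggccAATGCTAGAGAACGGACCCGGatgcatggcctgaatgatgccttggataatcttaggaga
Neurod6: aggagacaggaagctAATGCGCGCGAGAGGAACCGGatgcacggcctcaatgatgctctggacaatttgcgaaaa
Olig2: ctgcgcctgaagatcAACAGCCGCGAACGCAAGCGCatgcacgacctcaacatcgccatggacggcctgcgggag
Atoh1: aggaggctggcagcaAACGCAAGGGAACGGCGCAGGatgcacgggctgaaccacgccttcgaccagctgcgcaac
Ptf1a: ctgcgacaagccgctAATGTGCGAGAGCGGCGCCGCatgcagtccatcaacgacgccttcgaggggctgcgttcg
Over the 36 pairs of genes these windows were 53.3% to 86.7% identical, with a median of 64.0%. Neurod1 and Neurod2 were the closest pair at 86.7%, and Neurog1 and Neurog2 followed at 81.3%. The longest run of bases shared exactly by any pair of whole transcripts was 26 bases, between Neurog1 and Neurog2.

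Levels are in FPKM, which scales fragments by gene length and by library size, and the table holds 6897009 to 11088583 recovered fragments per library. Hira, the targeted gene, stood at 16.7 and 19.8 FPKM in the libraries labelled Hira-null and at 15.8 and 15.5 FPKM in WT at day 15. At day 0 it stood at 12.4 and 11.4 FPKM in Hira-null mESCs, against 27.3 and 28.5 FPKM in WT mESCs. Hira was thus lower in Hira-null mESCs at day 0 (log2 fold change -1.17, SE 0.10, adjusted p = 8.48e-05, limma) but not at day 15 (0.20, SE 0.11, adjusted p = 0.167), and without Hira-null replicate 1 it was higher there (0.32, adjusted p = 0.0499). Hira shares exons with a gene on the same strand, Gm15797. The day 15 cultures of that line are therefore called the libraries labelled Hira-null. Summed markers of cardiomyocytes were 120 to 130 FPKM in the libraries labelled Hira-null and 194 to 198 FPKM in WT at day 15, and all 9 cardiomyocyte markers reached 1 FPKM in every day 15 library. Stem cell markers summed to 308 to 314 FPKM and 290 to 310 FPKM in the same groups, against 2535 to 2538 FPKM in Hira-null and 2300 to 2308 FPKM in WT at day 0.

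At day 15, 2 of the 5 members that could be tested were higher in the libraries labelled Hira-null and none was lower by the test. Olig2 was about 6 times higher and Neurog2 1.68 times higher, as ratios of pooled FPKM. Neurod1, Neurog1 and Neurod4 did not pass. Over all 14337 genes tested, 18.6% were called higher and 18.8% lower in this comparison. With 5 members tested, nothing about the set was read from its count against these shares. A gene was tested if it reached 1 FPKM in at least 2 libraries, and was called at an adjusted p of 0.05 or less. Neurod2, Neurod6, Atoh1 and Ptf1a fell under that limit. Fold changes are of log2(FPKM + 1), which understates the change of genes at low FPKM.

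**Figure D1:**
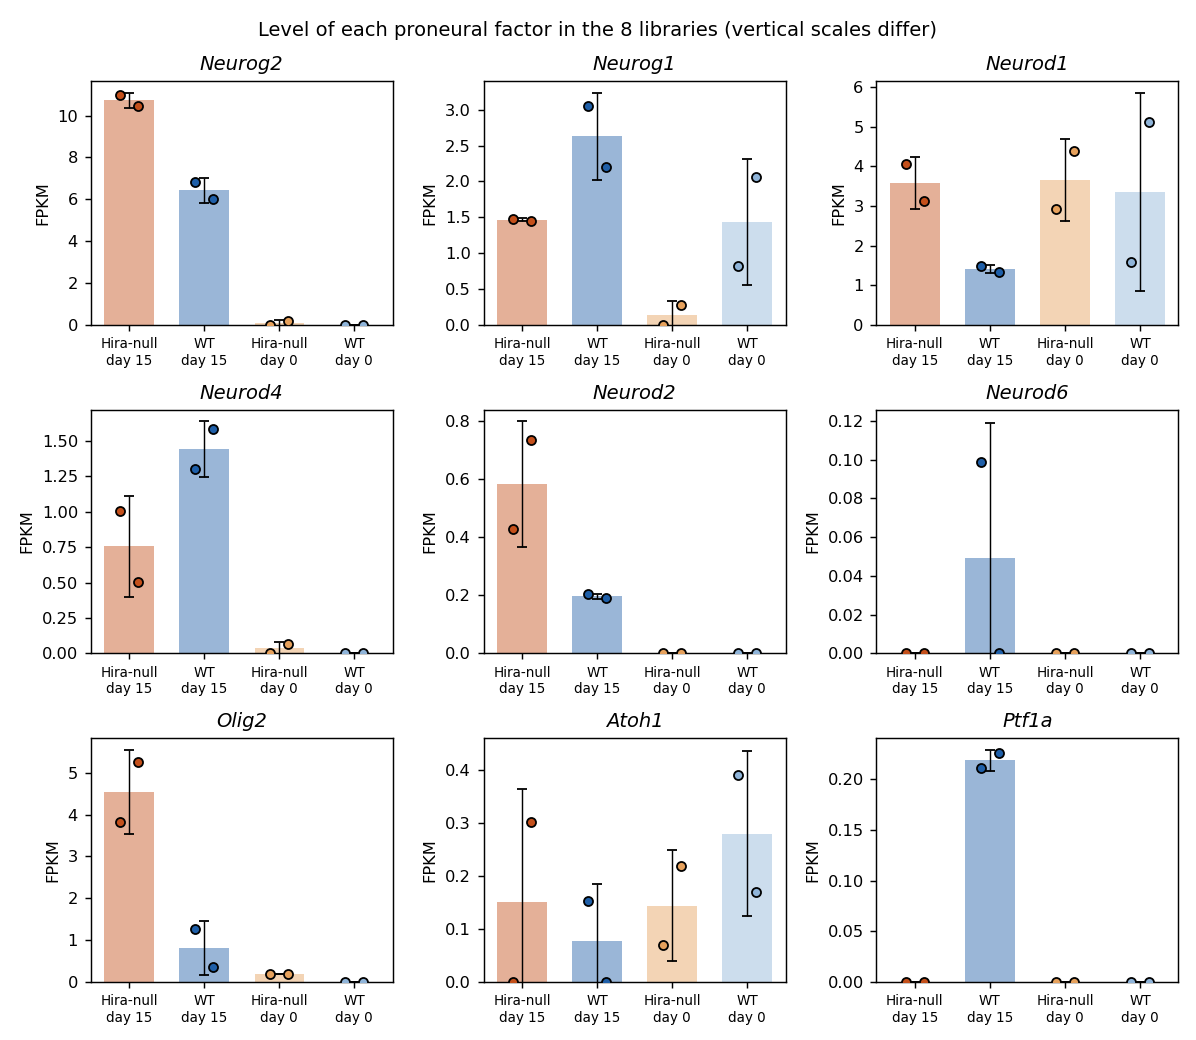
Level of each of the 9 factors in FPKM (vertical axes, scales differ) in the 4 groups. Points are libraries, bars are means and error lines are SD with n = 2, cut at 0; Neurog2 is high in all 4 day 15 libraries, and Olig2 is at 3.82 and 5.26 FPKM in the day 15 libraries labelled Hira-null, above both WT libraries.

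Neurog2, which starts neurogenesis in the cortex and spinal cord, was the most abundant member in both day 15 groups. It had 11.0 and 10.5 FPKM in the libraries labelled Hira-null, from 217 and 221 fragments, against 6.85 and 6.005 FPKM in WT, from 143 and 156 fragments. The groups did not overlap, and the 2 libraries of each lay close together. The log2 fold change was 0.66 (SE 0.16, adjusted p = 0.0128). The ratio of pooled FPKM was 1.68, with a 95% counting interval of 1.45 to 1.95 that covers counting error only. The call was lost without WT replicate 1 (0.74, adjusted p = 0.0668) or WT replicate 2 (0.58, adjusted p = 0.129), and with 0.1 in place of 1 added to FPKM (0.73, adjusted p = 0.273). Neurog2 lies at chr3:127336054-127338549 on the plus strand, in 2 exon blocks.

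Neurog1, which specifies sensory neurons of the cranial and dorsal root ganglia, had 1.48 and 1.45 FPKM in the libraries labelled Hira-null, against 3.06 and 2.20 FPKM in WT. Both WT libraries were above both of the others, but the difference did not pass the test (log2 fold change -0.55, SE 0.27, adjusted p = 0.141). The ratio of Neurog2 to Neurog1, per length, was 7.41 and 7.22 in the libraries labelled Hira-null and 2.24 and 2.73 in WT. Neurog1 is a single-exon gene at chr13:56351866-56353524 on the minus strand.

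Neurod1, which acts downstream of neurogenins in young neurons and in endocrine pancreas, had 4.05 and 3.12 FPKM in the libraries labelled Hira-null, against 1.49 and 1.33 FPKM in WT. The groups did not overlap, and the ratio of pooled FPKM was 2.54 (95% counting interval 1.92 to 3.39). With the spread shared over all 8 libraries the difference did not pass (log2 fold change 0.92, SE 0.36, adjusted p = 0.0782). It passed within the 4 day 15 libraries alone (adjusted p = 0.00844), without WT day 0 replicate 1 (adjusted p = 0.0102) and without WT day 0 replicate 2 (adjusted p = 0.0108). Those WT day 0 libraries differed from each other more than any other pair of replicates for Neurod1, at 1.58 and 5.13 FPKM. The gene, at chr2:79292678-79296908 on the minus strand, shares exons with Cerkl on the same strand, so some of its fragments could be split with that gene.

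Neurod4, which works with neurogenins in retina and hindbrain, had 1.01 and 0.503 FPKM in the libraries labelled Hira-null, against 1.30 and 1.58 FPKM in WT. The groups did not overlap, and the difference did not pass (log2 fold change -0.49, SE 0.19, adjusted p = 0.0746). It passed without Hira-null day 15 replicate 1 (-0.70, adjusted p = 0.0336) and without a variance trend (adjusted p = 0.0420). Neurod2, a factor of maturing cortical and cerebellar neurons, was near the limit of detection, at 0.429 and 0.737 FPKM in the libraries labelled Hira-null and 0.203 and 0.190 FPKM in WT, from 12 and 22 fragments against 6 and 7. Neurod6, which marks young cortical pyramidal neurons, was listed at 0 in every library but WT day 15 replicate 1, where it had 2 fragments.

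Olig2 had the largest log2 fold change of the 5 tested members. It had 3.82 and 5.26 FPKM in the libraries labelled Hira-null, from 83 and 122 fragments, against 1.26 and 0.350 FPKM in WT, from 29 and 10 fragments. The lower of the libraries labelled Hira-null was above the higher WT library, although the WT libraries themselves differed. The log2 fold change was 1.65 (SE 0.25, adjusted p = 0.00130), and the ratio of pooled FPKM was 6.03 (95% counting interval 4.26 to 8.73). Olig2 was called in all 19 alternative settings, with log2 fold changes of 1.28 to 2.79. Its genotype difference was larger at day 15 than at day 0 by 1.41 (SE 0.35, adjusted p = 0.0149), but this was lost with 0.1 added to FPKM (1.05, adjusted p = 0.345) and without Hira-null day 15 replicate 2 (1.22, adjusted p = 0.0513), and was -0.27 (adjusted p = 0.908) with voom on recovered fragments. Both WT day 0 libraries held no Olig2 fragment. Olig2 lies at chr16:91225795-91228922 on the plus strand.

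Ptf1a and Atoh1 were at the limit of detection. At day 15 Ptf1a had 0 fragments in each library labelled Hira-null, which at 3 fragments over the group allows up to 0.108 FPKM, against 0.211 and 0.226 FPKM in WT, from 3 and 4 fragments. The gene shares exons with the opposite-strand gene Gm13336, and the sources used here do not say whether strand entered the counts. Atoh1 had 0 and 0.302 FPKM in the libraries labelled Hira-null, against 0.152 and 0 FPKM in WT, and no order can be read from these. Markers of other tissues that these factors help to build were also low. Pancreas markers, 13 of 13 under 1 FPKM in every day 15 library, summed to 0.824 to 1.39 FPKM in the libraries labelled Hira-null and 1.26 to 1.70 FPKM in WT, with Ins1, Ins2 and Cel at 0. Hair cell and gut secretory markers summed to 1.06 to 1.09 FPKM and 0.550 to 0.762 FPKM in the same groups, and retina markers to 1.11 to 1.19 FPKM and 1.62 to 2.18 FPKM.

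The summed level of the 9 factors was 21.8 and 21.8 FPKM in the libraries labelled Hira-null and 14.6 and 11.9 FPKM in WT at day 15, against 3.17 and 5.33 FPKM in Hira-null and 2.79 and 7.36 FPKM in WT at day 0. Neurog2 took 50.4% and 48.0% of that sum in the libraries labelled Hira-null and 46.8% and 50.5% in WT. Olig2 took 17.6% and 24.1% in the libraries labelled Hira-null and 8.64% and 2.94% in WT. By mean level the order in the libraries labelled Hira-null ran Neurog2, Olig2, Neurod1, Neurog1, Neurod4 and Neurod2, where Olig2 overlapped Neurod1 and Neurod4 overlapped Neurod2. In WT it ran Neurog2, Neurog1, Neurod4, Neurod1 and Olig2, where Neurod4 overlapped Neurod1. Next in WT were Ptf1a (3 and 4 fragments) and Neurod2 (6 and 7 fragments), which had too few fragments to be put in order.

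**Figure D2:**
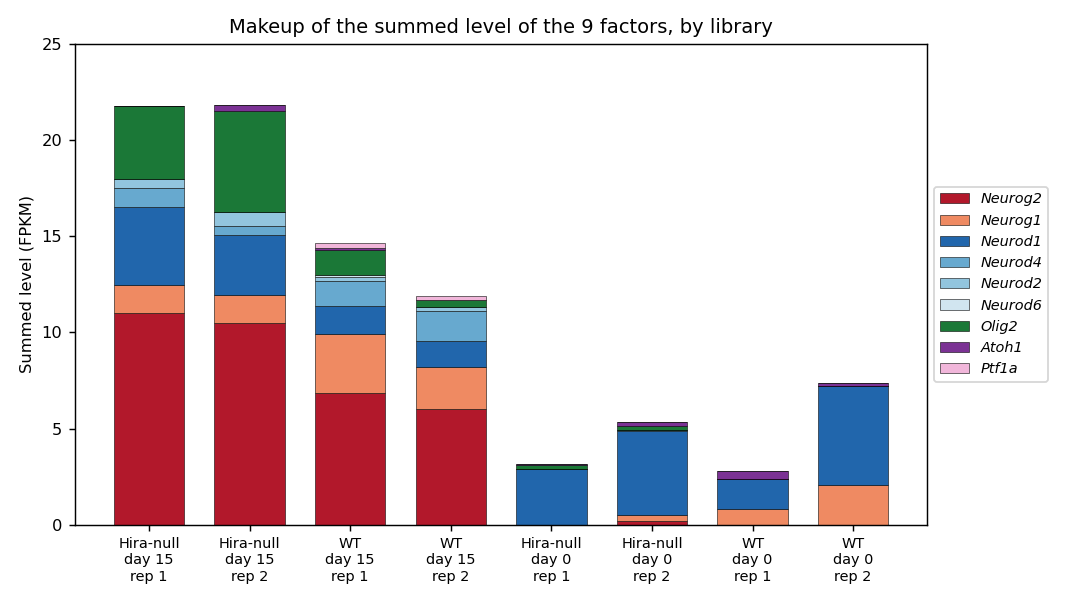
Summed level of the 9 factors (vertical axis, FPKM) in each of the 8 libraries, split by factor. At day 0 Neurod1 fills most of each bar, and at day 15 Neurog2 fills 46.8% to 50.5% of each bar with a larger Olig2 part in the libraries labelled Hira-null.

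From day 0 to day 15 the members called in either genotype all rose. In the line labelled Hira-null 4 of 5 tested members rose (37.5% of all genes did) and in WT 3 of 5 rose (36.1% of all genes did), while 36.4% and 33.4% of all genes fell in the line labelled Hira-null and in WT. Neurog2, Neurod4 and Olig2 were at 0 to 0.205 FPKM in every day 0 library and were tested only because of their day 15 levels. For these a rise was close to fixed by the filter, so nothing about the set was read from these counts. Neurog2 went up most in both. In the line labelled Hira-null it had 11.0 and 10.5 FPKM at day 15, against 0 and 0.205 FPKM at day 0 (log2 fold change 3.42, SE 0.16, adjusted p = 2.29e-07). In WT it had 6.85 and 6.005 FPKM at day 15, against 0 in both day 0 libraries, at least 74.5-fold higher when 3 fragments over the group are taken as the floor (log2 fold change 2.89, SE 0.16, adjusted p = 8.64e-07). Olig2 rose in the line labelled Hira-null (2.22, SE 0.25, adjusted p = 4.09e-05) and in WT (0.81, SE 0.25, adjusted p = 0.0170), where the call was lost without WT day 15 replicate 1 (0.43, adjusted p = 0.149) and with libraries centred on their median (0.57, adjusted p = 0.0650). Neurod4 rose in the line labelled Hira-null (0.75, SE 0.19, adjusted p = 0.00573) and in WT (1.29, SE 0.19, adjusted p = 2.76e-04). Neurog1 rose in the line labelled Hira-null (1.13, SE 0.26, adjusted p = 0.00384), and in WT the change did not pass (0.61, SE 0.26, adjusted p = 0.0640), though it did without WT day 0 replicate 2 (0.99, adjusted p = 0.00672). Neurod1 gave -0.01 (adjusted p = 0.984) in the line labelled Hira-null and -0.72 (adjusted p = 0.102) in WT, where it passed without WT day 0 replicate 1 (-1.35, adjusted p = 0.00143). Whether a genotype difference changed between the days was tested for each gene, and 17.5% of all genes were called larger and 17.7% smaller at day 15. Neurog1, Neurog2, Neurod1 and Neurod4 did not pass, except Neurod1 without WT day 0 replicate 1 (1.34, adjusted p = 0.0150).

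In undifferentiated mESCs Neurod1 led in both genotypes, at 2.92 and 4.38 FPKM in Hira-null and 1.58 and 5.13 FPKM in WT (log2 fold change 0.21, SE 0.35, adjusted p = 0.687). In WT the next gene, Neurog1, overlapped it. Without WT replicate 2 the Neurod1 difference passed (0.83, adjusted p = 0.0265). Neurog1 was the only member called, with 0 and 0.273 FPKM in Hira-null, against 0.815 and 2.06 FPKM in WT (log2 fold change -1.06, SE 0.26, adjusted p = 0.0110). In this comparison 19.4% of all genes were called lower and 20.8% higher. These levels rest on 0 and 4 fragments in Hira-null and 10 and 29 in WT. The call was lost without Hira-null replicate 1 (-0.89, adjusted p = 0.0785), without WT replicate 2 (-0.69, adjusted p = 0.0507) and within the day 0 libraries alone (adjusted p = 0.0800). Neurog2, Neurod4 and Olig2 had 0 to 0.205 FPKM in every day 0 library. Olig2 had 3 and 4 fragments in Hira-null mESCs and 0 in both WT libraries, a difference that did not pass (0.24, SE 0.24, adjusted p = 0.473) but did within the day 0 libraries alone (adjusted p = 0.0280).

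Partners and inhibitors of the factors were measured in the same comparison. Of the 3 E proteins, Tcf12 was called at day 15, with 64.9 and 59.2 FPKM in the libraries labelled Hira-null, against 44.8 and 48.0 FPKM in WT (log2 fold change 0.41, SE 0.09, adjusted p = 0.00784), and lost the call without WT replicate 1 (0.36, adjusted p = 0.0895). Tcf3 and Tcf4 did not pass (0.22 and 0.37, adjusted p = 0.127 and 0.123). Tcf3 passed without Hira-null replicate 1 (0.35, adjusted p = 0.0234) and with voom on recovered fragments (adjusted p = 0.0369), and Tcf4 within the day 15 libraries alone (adjusted p = 0.0263) and with voom (adjusted p = 0.00153). Without Hira-null replicate 2 Tcf3 gave 0.085. Of 9 tested inhibitors, 5 were higher and 1 lower, with a median log2 fold change of 0.37. Id3, which captures E proteins, was at 235 and 282 FPKM in the libraries labelled Hira-null, against 106 and 96.3 FPKM in WT (log2 fold change 1.34, SE 0.12, adjusted p = 9.46e-05). Hey1, a repressor on the Notch pathway, gave 0.71 (SE 0.16, adjusted p = 0.00844), and lost the call without WT replicate 2 (0.59, adjusted p = 0.105). Heyl, of the same repressor family, was the one lower, at 0.446 and 0.858 FPKM in the libraries labelled Hira-null, against 4.80 and 4.39 FPKM in WT (log2 fold change -1.77, SE 0.18, adjusted p = 1.82e-04). Heyl reached 1 FPKM only in the WT day 15 libraries, so the filter fixed the direction of its difference. Over all tested genes the median was 0.01, with 18.6% called higher and 18.8% lower.

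Among 18 Notch ligands and early proneural targets, 10 were higher, 1 lower and 7 did not pass, with a median log2 fold change of 0.59. The shares over all genes tested were 18.6% higher and 18.8% lower. Myt1, a zinc finger factor that promotes neuronal differentiation, was at 10.3 and 11.2 FPKM in the libraries labelled Hira-null, against 3.22 and 3.04 FPKM in WT (log2 fold change 1.51, SE 0.15, adjusted p = 1.68e-04). Scrt1, a neuronal repressor, gave 1.29 (SE 0.15, adjusted p = 3.97e-04) and Dcx, which binds microtubules in migrating neurons, 1.27 (SE 0.17, adjusted p = 5.93e-04). Dll4, a Notch ligand also made in endothelium and named after its value was seen, was the one lower (-1.11, SE 0.18, adjusted p = 0.00180). Like Heyl, it reached 1 FPKM only in the WT day 15 libraries, so the filter fixed the direction of its difference. Among other neural bHLH factors, Ferd3l, a floor plate factor, gave 1.12 (SE 0.17, adjusted p = 0.00121). Olig1, the neighbour of Olig2 on chromosome 16, gave 1.01 (SE 0.29, adjusted p = 0.0258). The call for Olig1 was lost without any 1 of the 4 day 15 libraries (adjusted p of 0.0657 to 0.197).

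**Figure D3:**
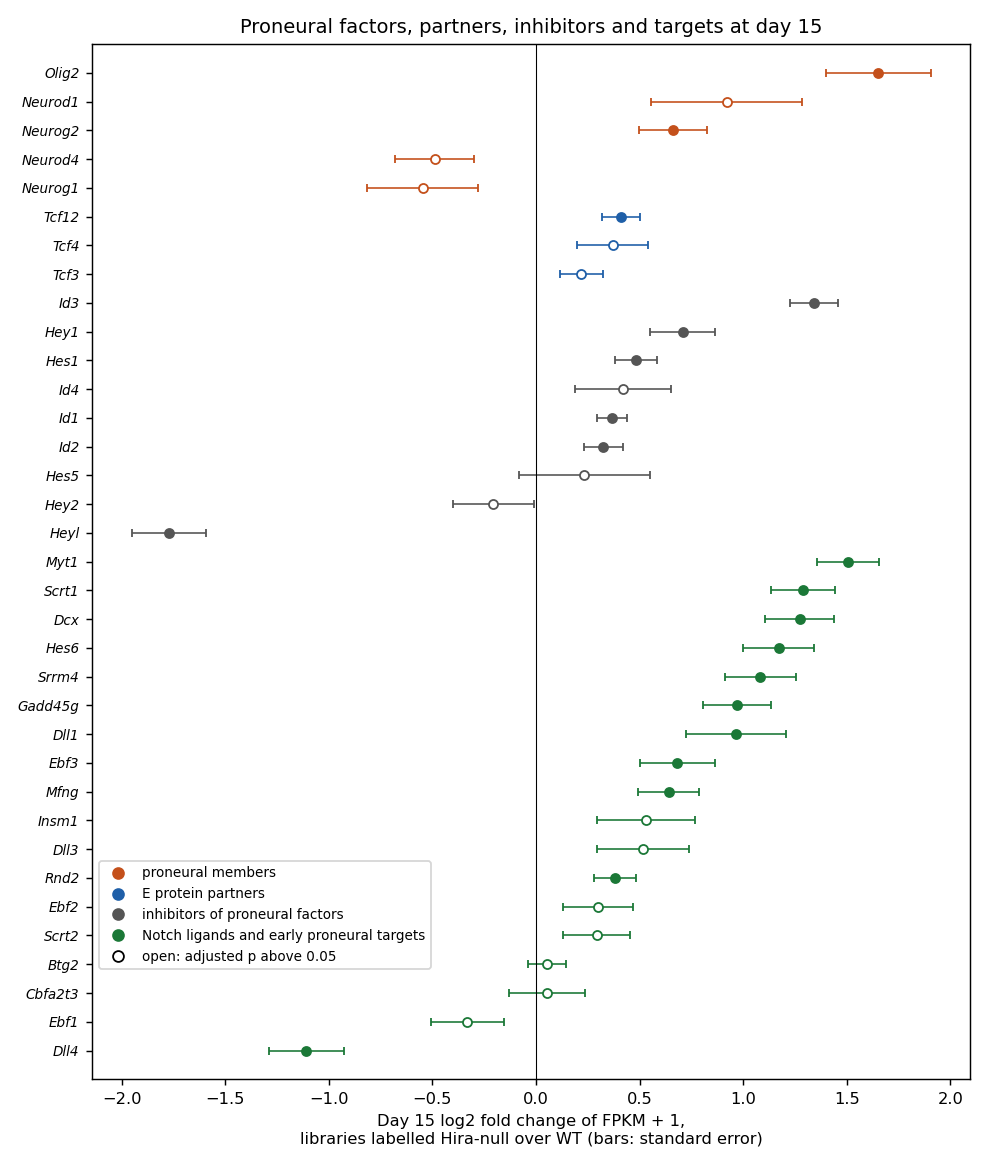
Day 15 log2 fold change of FPKM + 1 (horizontal axis, libraries labelled Hira-null over WT) for the tested members, E proteins, inhibitors and targets, with bars for the standard error and open points for genes that did not pass. Most early targets lie right of 0, Heyl and Dll4 lie far left, and the members lie on both sides.

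Markers of the neural cells in which the factors act were also compared at day 15, where 18.6% of all genes tested were called higher and 18.8% lower. Of 10 neuron markers, 9 were higher and none lower, with a median log2 fold change of 1.12. They summed to 285 to 304 FPKM in the libraries labelled Hira-null and 131 to 132 FPKM in WT. In undifferentiated mESCs the same sum was 247 to 256 FPKM in Hira-null and 226 to 233 FPKM in WT, of which Stmn2, a microtubule regulator, made up 182 and 188 FPKM in Hira-null and 146 and 145 FPKM in WT. Of 6 neural progenitor markers, 4 were higher at day 15, with sums of 409 to 433 FPKM in the libraries labelled Hira-null and 176 to 178 FPKM in WT. Fabp7, a radial glia lipid carrier, gave 2.18 (SE 0.13, adjusted p = 2.60e-05), Syt1, a synaptic calcium sensor, 1.78 (SE 0.18, adjusted p = 2.01e-04) and Elavl3, a neuronal RNA binding protein, 1.78 (SE 0.14, adjusted p = 6.30e-05). Map2, of dendrites, gave 1.62 and Nes, of neural progenitor filaments, 0.99, while Sox1, a neural progenitor factor, gave 0.68 (adjusted p = 0.00849) and lost the call without WT replicate 1 (adjusted p = 0.0998) or WT replicate 2 (adjusted p = 0.0555). Of 9 cardiomyocyte markers 4 were lower and none higher, with a median of -0.55. The other 5 did not pass and went both ways: Tnnt2 (0.55), Nkx2-5 (0.26), Ryr2 (0.07), Actn2 (-0.04) and Tnni3 (-0.97). Tnnt2 was at 57.8 and 59.7 FPKM in the libraries labelled Hira-null, against 38.9 and 41.0 FPKM in WT (adjusted p = 0.0838). Myl7 and Myl2, light chains of atrial and ventricular myosin, gave -2.37 and -1.59, and Myh7, a myosin heavy chain, gave -0.79 and lost the call without WT replicate 1 (adjusted p = 0.0769) or 2 (adjusted p = 0.0729). Of 8 stem cell markers 3 were higher and 5 lower, among them Pou5f1 (0.81), Dppa3 (-2.91) and Klf2 (-0.86). In bulk RNA, more cells of a type and more RNA per cell cannot be told apart, and the part of these markers in the differences of Neurog2 and Olig2 was not tested.

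Genes of the lineages in which single factors act were counted list by list. These genes need not be targets of the factor that names the list, and dependence on it was not tested. Of all genes tested at day 15, 18.6% were called higher and 18.8% lower. Of 7 tested genes of the Atoh1 lineage, 5 were higher and none lower, with a median of 0.84. Atoh1 itself was at most 0.302 FPKM in every day 15 library. Lhx2 and Pax6 did not pass (-0.36 and 0.25, adjusted p = 0.138 and 0.341), and Gabra6, also on this list, was at 0 in every library. Cbln1, a synapse organiser of cerebellar granule cells, was at 34.9 and 33.3 FPKM in the libraries labelled Hira-null, against 4.23 and 4.50 FPKM in WT (log2 fold change 2.71, SE 0.13, adjusted p = 7.68e-06). Zic1, a factor of dorsal neural progenitors, gave 2.60 (SE 0.16, adjusted p = 2.82e-05) and Barhl2, of dorsal commissural neurons, 1.75 (SE 0.19, adjusted p = 2.44e-04). Cbln1 was also higher in undifferentiated Hira-null mESCs, at 8.29 and 6.82 FPKM against 4.13 and 4.21 FPKM in WT (0.72, SE 0.12, adjusted p = 0.00186). Of 8 tested genes of the Ptf1a lineage, 4 were higher and 2 lower at day 15, with a median of 0.56. Lhx5 and Gad1, of inhibitory neurons, gave 1.55 (SE 0.19, adjusted p = 4.29e-04) and 1.16 (SE 0.17, adjusted p = 0.00119), and Tfap2b, also a neural crest factor, gave -1.10 (SE 0.16, adjusted p = 0.00101). Tfap2b reached 1 FPKM only in the WT day 15 libraries, so the filter fixed the direction of its difference.

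Of 8 tested glutamatergic and cortical genes, 3 were higher and 1 lower, with a median of 0.60. For this list and the sensory and Olig2 lists below, the shares over all genes tested were 18.6% higher and 18.8% lower. Slc17a6, the vesicular glutamate carrier of many subcortical neurons, gave 1.19 (SE 0.23, adjusted p = 0.00405) and Bcl11b, of corticospinal neurons, 1.13 (SE 0.16, adjusted p = 8.13e-04). Emx2, a patterning factor of the cortex, gave 0.89 (adjusted p = 0.0114) and lost the call without Hira-null replicate 1 (adjusted p = 0.0571) or WT replicate 1 (adjusted p = 0.117). Eomes, of intermediate progenitors in the cortex and also of early mesoderm and endoderm, was the one lower, at 2.51 and 3.20 FPKM in the libraries labelled Hira-null, against 5.43 and 5.42 FPKM in WT (-0.74, SE 0.15, adjusted p = 0.00466), and lost the call without WT replicate 1 (adjusted p = 0.0524) or 2 (adjusted p = 0.0516). The sensory ganglion genes, where Neurog1 acts, had 1 higher and 2 lower of 10 tested, with a median of -0.20. Prph, a filament of peripheral neurons, gave 1.14 (adjusted p = 5.53e-04), and Runx3, of proprioceptive neurons, gave -0.70 (adjusted p = 0.0344) and lost the call without any 1 of the 4 day 15 libraries (adjusted p of 0.0539 to 0.182). Prph was also higher in undifferentiated Hira-null mESCs, at 32.2 and 29.5 FPKM against 7.14 and 7.87 FPKM in WT (1.91, SE 0.14, adjusted p = 4.02e-05). By day 15 Prph had fallen in the line labelled Hira-null (-1.45, adjusted p = 1.97e-05) and in WT (-0.69, adjusted p = 0.00241). Its genotype difference was smaller at day 15 than at day 0 (-0.76, SE 0.20, adjusted p = 0.0206). Of 12 tested genes of the Olig2 lineage, 3 were higher and 4 lower at day 15, with a median of -0.10. The higher ones were Nkx2-2 and Nkx6-1, of ventral progenitors, and Mnx1, of motor neurons. Nkx2-2 was at 9.72 and 11.7 FPKM in the libraries labelled Hira-null, against 2.51 and 2.51 FPKM in WT (1.73, SE 0.17, adjusted p = 1.56e-04), and Nkx6-1 at 14.9 and 20.4 FPKM in those libraries, against 6.03 and 4.04 FPKM in WT (1.63, SE 0.22, adjusted p = 6.72e-04). Mnx1 gave 0.68 (SE 0.18, adjusted p = 0.0185), and lost the call without WT replicate 1 (adjusted p = 0.117) or 2 (adjusted p = 0.110). Mnx1 was low, at 0.925 and 1.01 FPKM in the libraries labelled Hira-null, against 0.219 and 0.234 FPKM in WT. In undifferentiated Hira-null mESCs it was at 1.20 and 0.860 FPKM (day 15 minus day 0 -0.04, adjusted p = 0.850). Lhx3 and Chat, also of motor neurons, were at most 0.227 FPKM in every day 15 library, and Slc18a3 did not pass (0.31, adjusted p = 0.443). The lower ones at day 15 included Cspg4 (-2.15, SE 0.16, adjusted p = 5.57e-05) and Pdgfra (-2.03, SE 0.13, adjusted p = 3.15e-05), which mark oligodendrocyte precursors and also pericytes and mesenchyme. Sox10, also on this list, was lower too, at 0.0827 and 0.116 FPKM in the libraries labelled Hira-null, against 1.17 and 1.64 FPKM in WT (-1.12, SE 0.19, adjusted p = 0.00203). Cspg4 and Sox10 reached 1 FPKM only in the WT day 15 libraries, so the filter fixed the direction of these differences. Isl1, of motor and sensory neurons and also of cardiac progenitors, was at 1.56 and 2.41 FPKM in the libraries labelled Hira-null, against 8.66 and 10.1 FPKM in WT (-1.81, SE 0.19, adjusted p = 1.97e-04).

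**Figure D4:**
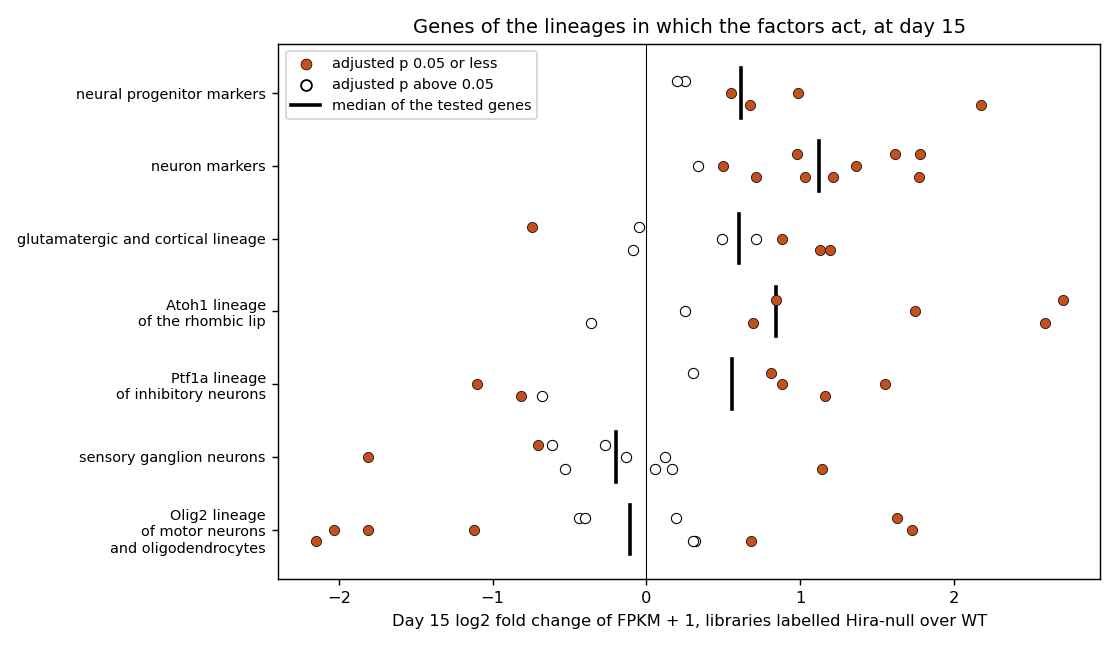
Day 15 log2 fold change of FPKM + 1 (horizontal axis, libraries labelled Hira-null over WT) for the tested genes of 7 lists of neural lineages, with filled points for genes that passed, open points for those that did not and a bar for each list's median. The median is 1.12 for neuron markers, 0.84 for the Atoh1 lineage and -0.10 for the Olig2 lineage, whose genes lie on both sides of 0.

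Promoters of 2 members show where the E-box, the motif CANNTG that bHLH pairs bind, does and does not occur. The windows are the 250 bases before the start of transcription in the RefSeq annotation of GRCm38.p6, with each E-box in capitals. The window of Neurog2 is chr3:127632886-127633135 on the plus strand and that of Neurod2 is chr11:98329646-98329895 on the minus strand.
Neurog2: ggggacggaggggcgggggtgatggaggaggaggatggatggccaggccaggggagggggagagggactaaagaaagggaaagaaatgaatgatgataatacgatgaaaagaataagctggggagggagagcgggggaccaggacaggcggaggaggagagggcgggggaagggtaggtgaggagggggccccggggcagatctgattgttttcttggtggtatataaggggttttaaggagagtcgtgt
Neurod2: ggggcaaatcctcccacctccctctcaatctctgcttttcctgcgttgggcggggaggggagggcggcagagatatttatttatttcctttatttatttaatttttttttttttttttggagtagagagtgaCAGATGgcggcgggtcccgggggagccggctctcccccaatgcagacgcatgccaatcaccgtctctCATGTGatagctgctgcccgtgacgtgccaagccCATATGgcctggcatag
The Neurod2 window holds 3 E-boxes and the Neurog2 window none. Windows of 3 of the 9 members (Neurod1, Neurod2 and Neurod6) hold at least 1 such match, against 66.2% of 32851 windows of all genes.

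Likeness over the 8 libraries was also measured, by Pearson's r of log2(FPKM + 1), as a description in which all points share the same 4 groups and depths. Neurog2 was most like Sncaip and Tox (r = 0.999 for both), and 1622 genes had r of 0.95 or more with it. Olig2 was most like Shc3 and Tmem200c (r = 0.99 for both, 318 genes at 0.95 or more), and Neurod4 had r of 0.99 with Pln (291 genes). Neurog1 was most like Myb and Tubgcp5 (r = 0.97 for both, 18 genes). Neurod1 was most like Igsf23 (r = 0.97) and Taf3 (r = 0.90), and Igsf23 alone reached 0.95.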

How the data were processed

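Libraries were made with a stranded mRNA kit and sequenced as paired ends. The authors aligned reads to mm9 with Bowtie 0.12.2 and deposited FPKM values per gene. Fragments were recovered by searching, gene by gene, for the step that made these values whole. The share whole within 0.1 fragment, 100.0%, was fixed by that search and is no check of the counts. There were 6897009 to 11088583 fragments per library, with a median of 8764772.0, and 27 symbols turned into dates were not used. The authors also deposited 2 tables of their own comparisons from DESeq2 1.6.3 (fold changes and p-values), which were not used.

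Values were taken as log2(FPKM + 1), and the 14337 genes that reached FPKM 1 in 2 or more of the 8 libraries were fitted in limma 3.58.1 (R 4.3.3). The model had 4 group means, weights by day and a trended prior, with Benjamini-Hochberg adjustment over all genes tested and a threshold of 0.05. The fit has 4 residual degrees of freedom. Replicates are biological samples by the study's methods, n = 2 per group, and counting intervals cover counting error only. The script was tested on simulated data. The study's count test was not used because FPKM are not counts.

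The members and the 16 further gene lists were chosen with earlier results of these data known. Named genes are the 9 members, Hira, lists of 4 or fewer genes in full, of each other list the 3 largest called changes at day 15, and the 2 genes most like each tested member. Some genes this rule selects are not reported here. Dll4, Eomes, Nkx2-2, Nkx6-1, Mnx1, Stmn2, Lhx2, Pax6, Lhx3, Chat and Slc18a3 fall outside this rule. So do genes that share exons with a member or with Hira, and genes listed at 0. All of these were named after their values were seen. Alternatives changed the pseudocount, filter, weights, trend, scaling, libraries fitted, replicate block, and left out each library. The voom fit on recovered fragments was added after seeing the data.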

Additional observations from a re-analysis of the deposited data

Results flagged for a closer look

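The genotype difference of Olig2 differed between the days by 1.41 on the scale of log2(FPKM + 1) (SE 0.35, adjusted p = 0.0149, limma), with a larger difference at day 15. The result depends on that scale. It was 1.05 (adjusted p = 0.345) with 0.1 added to FPKM and -0.27 (adjusted p = 0.908) with voom on recovered fragments. At day 0 it rests on 7 Olig2 fragments in Hira-null and 0 in WT. The genotype difference of Hira differed between the days by 1.37 (SE 0.15, adjusted p = 4.44e-04), being negative at day 0 and near 0 at day 15. These were the results among the members and the targeted gene that passed a test of a difference between days.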

How the results depend on the processing

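With 2 libraries a group and members at few fragments, calls depended on single libraries. Leaving out 1 library gave 2541 to 5309 genes called at day 15 (5363 with all libraries), 3655 to 5638 at day 0 (5765), and 2896 to 4523 for the difference between genotype effects (5044). The lowest counts came without WT day 15 replicate 1 (2541 and 2896) and Hira-null day 0 replicate 1 (3655), and the counts were 2589 and 3219 without WT day 15 replicate 2 and 3782 without Hira-null day 0 replicate 2. The genes called over differentiation in WT were 5175 higher and 4786 lower, or 3985 and 6095 with libraries centred on the median, which moved the median log2 fold change of all genes to -0.20. Scaling by upper quartile moved it to 0.18.

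Some directions of low or unchanged members turned round. The difference between genotype effects of Neurog2 was -0.072 with 0.1 added and -1.01 with voom, and that of Olig2 was -0.27 with voom. Neurod4 at day 0 was -0.017 when median centred. Leaving out 1 library moved Neurod1 at day 0 between -0.42 (without WT replicate 1) and 0.83 (without WT replicate 2), with -0.021 without Hira-null replicate 2. Its change over differentiation in the line labelled Hira-null was 0.066 scaled by upper quartile, 0.14 without Hira-null day 15 replicate 2, 0.22 without Hira-null day 0 replicate 2, -0.24 without Hira-null day 0 replicate 1 and 0.0088 with voom. The cause was not tested.

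The labels do not say whether libraries with the same replicate number share an experiment. Their deviations had a correlation of -0.10 at day 15 and 0.03 at day 0 over the tested genes, which does not settle this. With the replicate block, 4049 genes were called at day 15, 5580 at day 0, 10288 and 9606 over differentiation in the line labelled Hira-null and in WT, and 4106 for the difference between genotype effects. Neurod1 then passed at day 15 (adjusted p = 0.0318), Neurod1 and Neurog1 passed over differentiation in WT (adjusted p = 0.0262 and 0.0285), and Olig1 and Runx3 did not pass at day 15. Neurod1 also passed at day 15 with voom (1.31, adjusted p = 0.0132). In a fit with no filter, over 19134 genes and read after seeing the data, Neurod2 gave 0.40 (adjusted p = 0.0303) and Ptf1a -0.29 (adjusted p = 0.0165) at day 15, from the few fragments given above.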
